A study of Homo sapiens with 4 samples.

Results

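The regions described here are 32787 stretches of the genome whose DNA became more accessible with both doxorubicin (Doxo) and aclarubicin (Acla) in K562, an established cell line from a human chronic myelogenous leukaemia. They were chosen because the same start and end stood in the authors' list of regions gained with Doxo and in their list of regions gained with Acla. They are 49.1% of the 66720 regions listed for Doxo, 53.5% of the 61295 listed for Acla, and part of 100205 regions listed for any drug of the study. Accessibility was measured by ATAC-seq, in which a transposase inserts sequencing adapters into DNA that is not packed away. Cells had been exposed for 4 h to 10 µM Doxo, to 20 µM Acla or to 10 µM of a dimethylated Doxo (diMe-Doxo), and the control was K562 cells that received no drug. Each group is 1 GEO sample whose list holds values for 2 libraries, numbered here only by their order in the list. The labels do not say that the libraries came from separate cultures, so the p-values rest on the spread between libraries, which may be technical. The test estimates that spread largely from all shared regions together. A p-value or standard error (SE) therefore says little of the spread between libraries at its own region. Because the doses differ, drug and dose cannot be told apart in any difference between Doxo and Acla.

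Doxo and Acla are anthracyclines, flat ringed molecules that slide between DNA base pairs and carry sugars that lie in the minor groove. Doxo carries an amino sugar and traps topoisomerase II on cut DNA, while Acla carries a chain of sugars that begins with a dimethylated amino sugar and is known to hinder topoisomerase II without leaving many DNA breaks. Both drugs are also known to loosen histones from DNA, an effect that opens chromatin.

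Among the shared regions with the lowest adjusted p for Doxo over Acla, 1 lay in the window around PCDH8, a protocadherin of cell adhesion, and 1 in that around IRS2, an adaptor of insulin signalling. The windows around TLX3 and SOX1, developmental transcription factors, also held regions with high Doxo signal. A window is the gene with 20 kb on each side, and a region in it may belong to another gene. The 250 bases before the start of each of these 4 genes are given from RefSeq (build GRCh38.p14), 5′ to 3′ on the strand of the gene, with the dinucleotide CG in capitals, which is its own reverse complement. The region lists use GRCh37, so the place of these bases within a region was not read, and the sequences of the regions themselves were not analysed here.
PCDH8 promoter, chr13:52848641-52848890, minus strand: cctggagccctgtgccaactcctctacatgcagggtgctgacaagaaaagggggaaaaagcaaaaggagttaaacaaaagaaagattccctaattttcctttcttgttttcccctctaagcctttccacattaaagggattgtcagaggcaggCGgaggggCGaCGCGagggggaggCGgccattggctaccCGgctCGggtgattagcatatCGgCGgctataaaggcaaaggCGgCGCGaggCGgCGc
IRS2 promoter, chr13:109786584-109786833, minus strand: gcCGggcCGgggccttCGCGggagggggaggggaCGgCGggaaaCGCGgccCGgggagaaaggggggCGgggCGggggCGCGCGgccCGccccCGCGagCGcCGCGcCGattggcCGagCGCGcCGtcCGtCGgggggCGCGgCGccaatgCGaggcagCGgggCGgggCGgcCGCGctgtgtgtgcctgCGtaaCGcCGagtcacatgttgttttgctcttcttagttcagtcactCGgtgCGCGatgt
TLX3 promoter, chr5:171308998-171309247, plus strand: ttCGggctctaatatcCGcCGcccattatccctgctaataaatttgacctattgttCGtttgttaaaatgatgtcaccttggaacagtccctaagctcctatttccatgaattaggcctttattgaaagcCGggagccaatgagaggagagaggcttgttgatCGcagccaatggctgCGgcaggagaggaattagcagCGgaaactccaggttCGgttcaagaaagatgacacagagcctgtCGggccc
SOX1 promoter, chr13:112066899-112067148, plus strand: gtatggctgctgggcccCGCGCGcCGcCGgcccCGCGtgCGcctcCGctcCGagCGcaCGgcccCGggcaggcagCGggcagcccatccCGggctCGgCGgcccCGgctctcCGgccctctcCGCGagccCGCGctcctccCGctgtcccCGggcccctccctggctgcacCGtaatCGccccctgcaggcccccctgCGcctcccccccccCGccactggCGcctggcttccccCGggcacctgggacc
The IRS2 stretch holds 42 CG and the SOX1 stretch 31, numbers reached by 1.38% and 10.9% of the 35116 RefSeq promoters of that length. The PCDH8 stretch holds 14 and the TLX3 stretch 10, which 44.8% and 52.2% of promoters reach. These 4 promoters thus do not share a high CG count, which says nothing of the regions themselves. PCDH8, IRS2 and TLX3 had been picked for large Doxo gain. Among the named regions, that of lowest adjusted p lay in the window of ZAR1, described below, whose promoter is not printed.

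The shared regions cover 34.8 Mb and have a median width of 980 bp. The median region held 33 and 34 reads in the Doxo libraries, 111 and 95 in the Acla libraries, and 4 reads summed over both control libraries. The Acla libraries were therefore the more deeply read here, and counting error weighs more on the Doxo values. Signal is given as normalized reads on the scale of the authors' Doxo list, to which the Acla values were brought through the control libraries that both lists share. The control reads were identical in both lists at all 32787 regions. On this scale the log2 spread between libraries at a region (SD) was 0.42 for Doxo and 0.26 for Acla. Doxo-listed regions that Acla lacked were narrower, with a median of 619 bp, and 23.9% of them had a control peak, against 10.8% of the shared regions. Acla-listed regions that Doxo lacked had a median width of 738 bp and a control peak at 6.38%.

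At the median the signals of the drugs lay close together, but the tails did not match. The median shared region had 23.4 normalized reads with Doxo and 20.7 with Acla. The median log2 ratio of Doxo over Acla, with 1 normalized read added to each mean, was 0.12, and the middle 50% of regions ran from -0.42 to 0.84. Ratios reached farther above the median than below it. The log2 ratio lay over 3 at 507 regions and between 2 and 3 at 2447, whereas it lay under -2 at 13 and between -2 and -1 at 2197. The median ratio was 0.04 for Doxo library 1 over Acla library 1, 0.23 for Doxo 1 over Acla 2, 0.03 for Doxo 2 over Acla 1 and 0.26 for Doxo 2 over Acla 2, so it depended more on the Acla library than on the Doxo library.

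**Figure D1:**
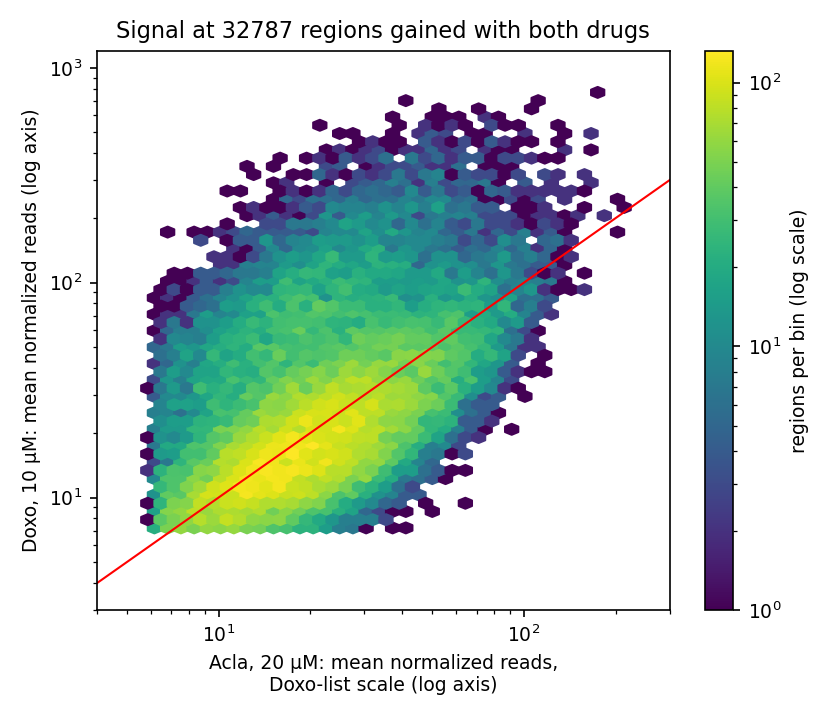
Mean normalized reads at each of the 32787 shared regions with Doxo (vertical, log axis) against Acla (horizontal, log axis), coloured by the number of regions per bin, with a red line of equal signal. Most regions lie near the line around the medians of 23.4 with Doxo and 20.7 with Acla, and the cloud reaches farther above the line than below it.

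Tested library against library, 8793 shared regions were higher with Doxo than with Acla and 3747 were lower, at an adjusted p of at most 0.05 (edgeR's quasi-likelihood test, p adjusted by the Benjamini-Hochberg method). These are 26.8% and 11.4% of all shared regions, 38.2% together, and 70.1% of the calls were higher. With TMM factors, which set the bulk of regions equal, the median ratio moved by -0.20 on the log2 scale to -0.08, and 7698 regions were higher and 6193 lower, so 55.4% of the calls were higher. The difference between drugs at a typical region is thus smaller than the shift between scales, and the medians of classes below are best read against the 0.12 of all shared regions. All 7698 higher calls under TMM, and 3746 of the lower calls, were also calls on the control scale. Of these, 6289 higher and 614 lower calls were made again without each library in turn. The lower count fell to 1042 without Acla library 1 and to 1767 without Doxo library 1, while the higher count stayed between 7361 and 7664 without any 1 library. With a log2 ratio of at least 1 in size also required, 7365 regions were higher, 22.5%, and 2431 were lower, 7.41%. Both Doxo libraries exceeded both Acla libraries at 12982 regions, 39.6%, and lay below both at 8358, 25.5%.

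The regions called in each direction were not alike. Those higher with Doxo had a median of 67.6 normalized reads with Doxo and 19.8 with Acla, so their Acla signal was near that of all shared regions. Those lower with Doxo had a median of 16.3 with Doxo and 37.0 with Acla. The higher ones were 1044 bp wide at the median, had 5 control reads, and had a control peak at 15.99%. The lower ones were 1289 bp wide, had 3 control reads and had a control peak at 5.12%. At the lower regions the Acla libraries also differed more from each other, with a median log2 ratio of library 1 over library 2 of 0.38, against -0.04 at the higher regions and 0.21 at all shared regions. Its part in the result was not tested. Of the higher regions, 87.2% were also listed for diMe-Doxo, near the 87.6% of all shared regions, and there the medians were 70.8 normalized reads with Doxo, 23.9 with diMe-Doxo and 21.1 with Acla. Of the lower regions, 98.6% were, with medians of 16.3 with Doxo, 23.5 with diMe-Doxo and 37.2 with Acla.

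The highest ratios belonged to regions with high Doxo signal and an Acla signal near or under the median. The region at chr14:59930476-59932462 had 308 and 375 normalized reads in the Doxo libraries, against 12.9 and 11.7 in the Acla libraries. It was the region of highest log2 ratio, 4.79 ± 0.21 (SE, n = 2 libraries each), with an adjusted p of 5.51e-116 by edgeR's quasi-likelihood test and of 6.86e-15 with TMM factors. A region on the same chromosome at chr14:34268552-34270423 had 244 and 277 with Doxo, against 9.74 and 10.8 with Acla. The libraries of the drugs did not overlap at either region, and the control libraries held 4 and 1 reads at the first and 1 read each at the second. The region at chr20:43726065-43727555, which was not listed for diMe-Doxo, had 163 and 184 with Doxo, against 7.35 and 6.55 with Acla. The other 5 of the 8 highest lay on chromosomes 3, 4, 7, 8 and 9, with log2 ratios between 4.47 and 4.64. The Acla libraries were farthest apart at the regions on chromosomes 7 and 8. That on chromosome 7, chr7:50849521-50851183, had 333 and 382 with Doxo, against 10.3 and 19.6 with Acla. None of the 8 lay within 10 Mb of the outermost listed region of its chromosome.

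The lowest ratios were smaller in size and rested on few Doxo reads. The region at chr8:118488620-118490969 had 14.2 and 4.22 normalized reads in the Doxo libraries, which are 20 and 6 reads, against 73.2 and 54.2 in the Acla libraries. Its log2 ratio was -2.79 ± 0.34 (SE, n = 2 libraries each; adjusted p = 1.73e-15 by edgeR's quasi-likelihood test), and it ran from -3.90 to -2.16 when a library was left out. The region at chr2:19023923-19025663 had 14.2 and 11.97 with Doxo, against 77.7 and 54.4 with Acla, a log2 ratio of -2.33 ± 0.31. Both Doxo libraries lay below both Acla libraries at each of the 8 lowest, and Acla library 1 was above Acla library 2 at each of them. Their log2 ratios ran from -2.79 to -2.19, and 7 of the 8 had 1 read in each control library. The lists hold no log2 fold over control below 1.5. A region with so little Doxo signal can thus be listed only where control reads are few, so that low count follows from the choice of regions. The same bound limits how low a ratio can fall, and the bound on Acla limits how high it can rise. Among lower regions with the lowest adjusted p, that at chr5:161896508-161899407 carried more signal, with 32.0 and 45.8 with Doxo against 130.2 and 102.7 with Acla.

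**Figure D2:**
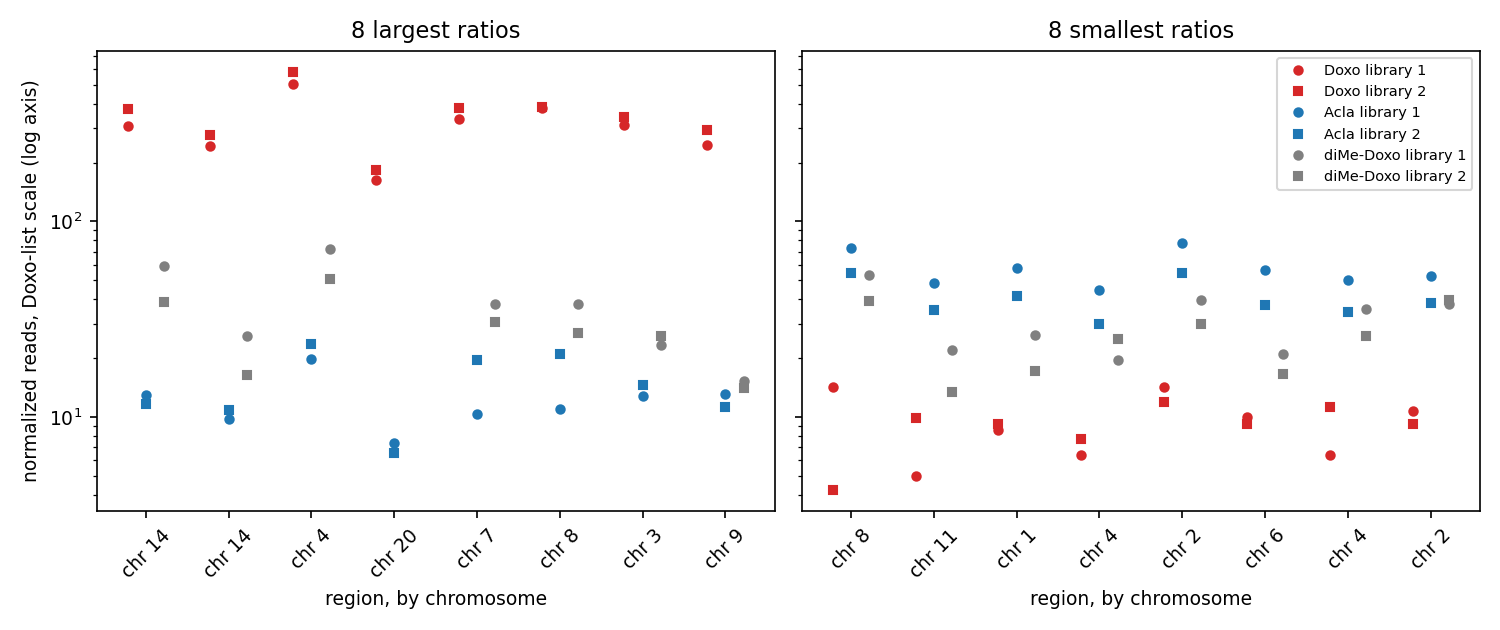
Normalized reads in each library (log axis) at the 8 regions of highest and the 8 of lowest log2 ratio, named by chromosome, with Doxo in red, Acla in blue and diMe-Doxo in grey, and circles and squares for libraries 1 and 2. The Doxo points stand above all others at the left and below all others at the right, and the Acla points spread from 6.55 to 23.7 at the left.

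The ratio varied with both region width and control signal. Regions under 500 bp had a median log2 ratio of 0.42, with 29.5% higher and 0.255% lower, but their median signal was 14.5 normalized reads with Doxo and 10.3 with Acla. The median was 0.11 from 500 to under 1000 bp and -0.05 from 1000 to under 1500 bp, where 24.3% were higher and 17.3% lower. It was 0.07 from 1500 to under 2000 bp, 0.48 from 2000 to under 2500 bp and 1.01 in the 451 regions of 2500 bp or more, where 66.5% were higher and 10.6% lower. With all control-read classes pooled, the ratio was therefore lowest at middle widths, which did not hold among regions with 2 control reads (below). Against control signal it climbed steadily up to 49 reads. With 2 control reads in all, the fewest that occur, the median was -0.09 over 10568 regions, with 16.6% higher and 12.9% lower. With 10 to 19 it was 0.56, with 49.9% higher and 5.34% lower, and with 20 to 49 it was 0.83 over 361 regions, with 68.1% higher and 1.94% lower. A region with more control reads needs more signal with either drug to be listed, and the part of this in the result was not tested. In the stricter lists (FDR up to 0.01, log2 fold from 2) the class of 20 to 49 control reads exceeded that of 2 by 0.96, against 0.92 in the full lists. Those lists also rest on the fold over control, so they do not test that part. Regions with no control peak had a median of 0.08, those with a peak in 1 control library 0.36 and those with a peak in both 0.52.

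With both features considered, wide regions with the fewest control reads had the lowest ratios. Among regions with 2 control reads, the median ratio was 0.29 under 500 bp, -0.10 from 500 to under 1000 bp, -0.48 from 1000 to under 1500 bp and -0.59 from 1500 to under 2000 bp. In that last class 192 of 451 regions were lower with Doxo and 69 were higher. With 20 to 49 control reads the same width gave 0.63, with 3 of 91 lower and 51 higher. Within each width class under 2500 bp the median climbed with each step in control reads that held at least 20 regions. Only 11 regions of 2500 bp or more had 2 control reads, and their median of -0.91 rests on too few regions for a comparison.

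**Figure D3:**
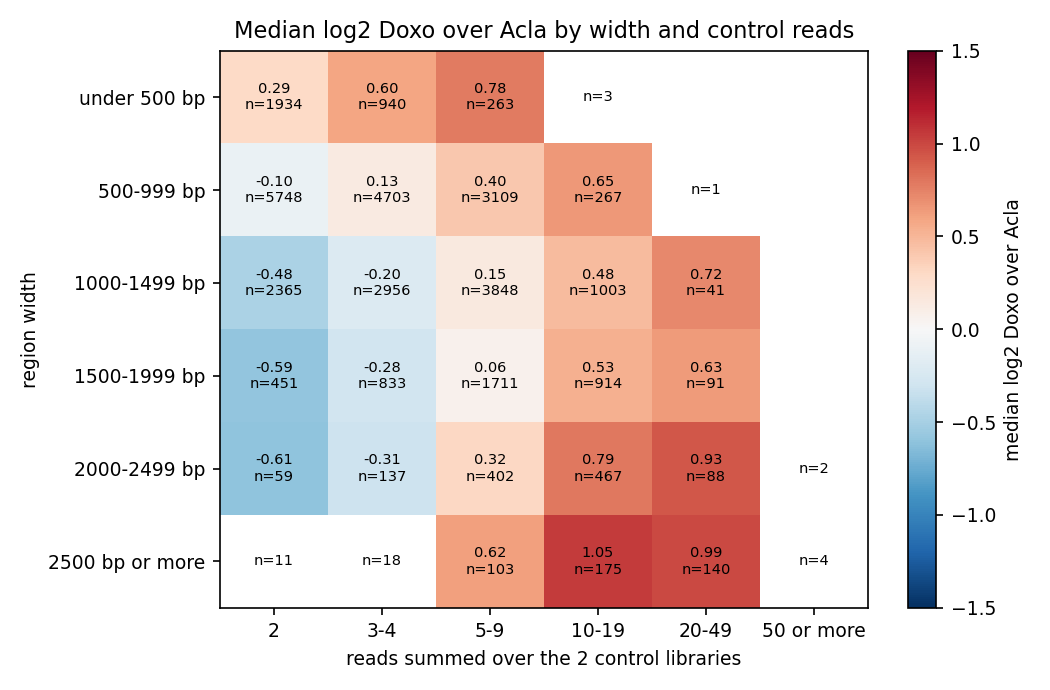
Median log2 ratio of Doxo over Acla in classes of region width (rows) and of reads summed over both control libraries (columns), with red for higher and blue for lower with Doxo and the number of regions in each class. Classes under 20 regions are left blank. The blue classes have 2 control reads at widths from 500 to under 2500 bp or 3 to 4 at widths from 1000 to under 2500 bp, and all coloured classes with 5 or more control reads are above 0.

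The 4 widest shared regions all had more signal with Doxo. The widest, 5231 bp at chr4:100570438-100575669, held 438 and 515 with Doxo, against 177 and 164 with Acla, and 50 and 18 control reads. Its log2 ratio was 1.48 ± 0.14 (SE, n = 2 libraries each; adjusted p = 3.32e-24 by edgeR's quasi-likelihood test). The region at chr21:44836854-44841056 had 668 and 767 with Doxo, the highest of the 4 widest, against 96.0 and 117 with Acla. Among the 4 regions with the most control reads, of which the region of 5231 bp is 1, the log2 ratios ran from 0.39 to 1.48. At chr22:20988581-20991053 the values were 229 and 182 with Doxo, against 133 and 168 with Acla, a log2 ratio of 0.45 ± 0.16 with an adjusted p of 0.0157 that became 0.341 with TMM factors. At chr1:228112533-228116420 they were 277 and 292 with Doxo, against 162 and 164 with Acla, a log2 ratio of 0.80 ± 0.15 with an adjusted p of 9.29e-07 by edgeR's quasi-likelihood test and of 0.00226 with TMM factors. At chr7:136553183-136556200 they were 154 and 231 with Doxo, against 156 and 138 with Acla, and the libraries overlapped; the log2 ratio of 0.39 ± 0.16 had an adjusted p of 0.0450, and of 0.456 with TMM factors.

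Along the genome the ratio was highest on chromosomes 19, 17 and 22 and near the outermost listed regions of chromosomes. On chromosome 19 the 909 shared regions had a median of 40.3 normalized reads with Doxo and 16.96 with Acla, a median log2 ratio of 1.12, and 58.5% were higher and 0.440% lower. Chromosome 17 had a median ratio of 0.86 and chromosome 22 of 0.77. Chromosomes 4 and X stood at the other end, both at -0.11. On chromosome 4, 18.4% of 2034 regions were higher and 17.2% lower, and on X 18.6% of 1179 were higher and 18.3% lower. The median lay above 0 on 16 of 23 chromosomes, and on 10 of 23 with TMM factors. The chromosomes kept this split among regions of like width and control reads. From 500 to under 1000 bp and with 2 control reads the median was 0.75 on chromosome 19 with 60 of 135 regions higher and 1 lower, and 0.67 on chromosome 22 with 21 of 76 higher and 0 lower. In the same class it was -0.26 on chromosome 4, with 38 of 400 higher and 43 lower. Over all 5748 regions of that class the median was -0.10, with 15.5% higher and 8.05% lower.

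Distance from the outermost listed region of a chromosome, which need not lie near the end of the chromosome, sorted the regions in a similar way. Within 1 Mb of it the 1195 shared regions had a median of 41.7 normalized reads with Doxo and 19.2 with Acla, a median log2 ratio of 0.99, and 55.7% were higher and 1.42% lower. The median ratio was 0.68 at 1 to 2 Mb, 0.32 at 2 to 5 Mb, 0.12 at 5 to 10 Mb and 0.11 at 10 to 20 Mb. Beyond 20 Mb it was 0.01 over 18632 regions, of which 21.9% were higher and 13.4% lower. Mean Acla signal changed little along this distance, with class medians between 19.2 and 21.2 normalized reads. Doxo class medians ran from 41.7 at the outside to 21.6 beyond 20 Mb. The Acla libraries did not move alike. Within 1 Mb the median ratio of Doxo library 1 was 1.09 over Acla library 1 and 0.997 over Acla library 2. Beyond 20 Mb these were -0.16 and 0.12. The part of this library difference in the result was not tested. Leaving out chromosomes 16, 17, 19 and 22, the highest by median, gave 0.86 within 1 Mb and -0.01 beyond 20 Mb. Of the regions higher with Doxo, 27.9% lay within 5 Mb of the outermost region, against 7.50% of the lower ones and 14.9% of those not called.

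**Figure D4:**
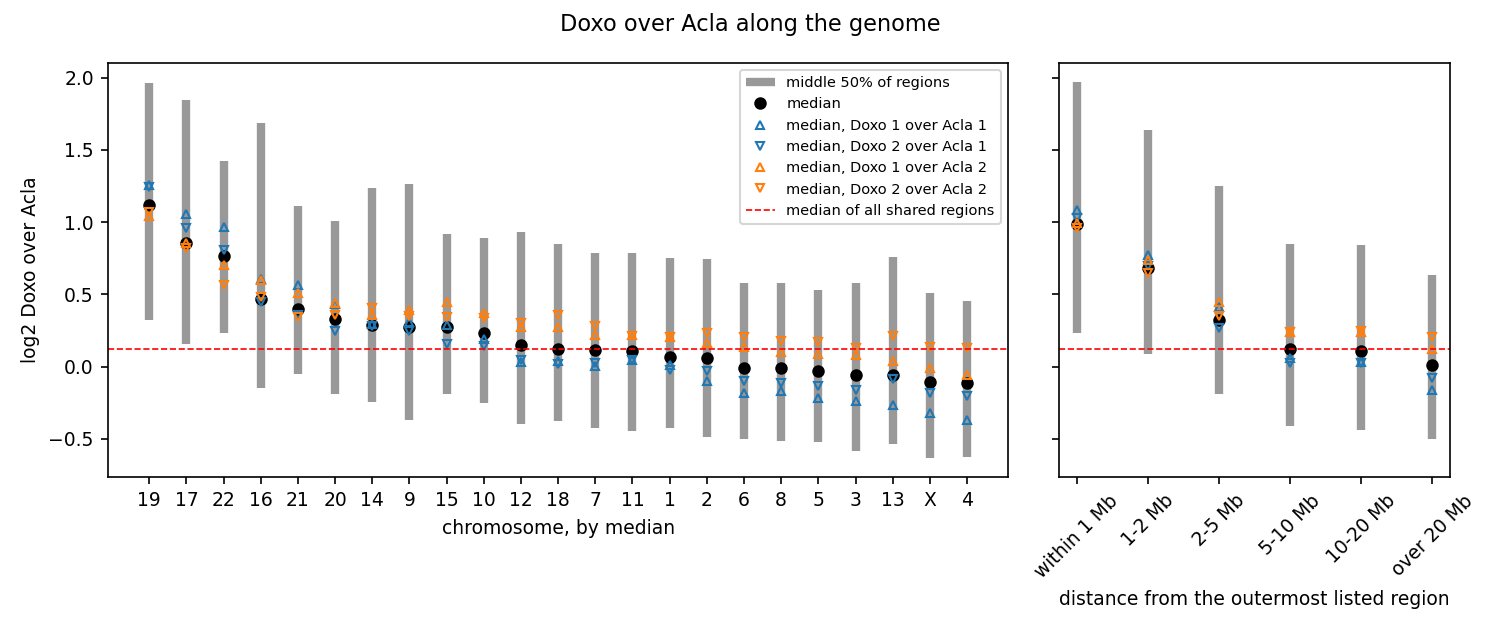
Log2 ratio of Doxo over Acla by chromosome, in order of the median (left), and by distance from the outermost listed region (right), with the median (black), the middle 50% of regions (grey bar), the medians for each pairing of a Doxo with an Acla library (triangles) and the median of all shared regions (dashed line). Chromosome 19 stands highest at 1.12 and chromosomes 4 and X lowest at -0.11, and the median goes down from 0.99 within 1 Mb to 0.01 beyond 20 Mb.

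Windows of 1 Mb showed how far the pattern was local. Of 448 windows with at least 20 shared regions, the median ratio lay above 0 in 279 and below 0 in 169, and above 0 in 223 with TMM factors. It reached 1 or more in 68 windows, of which 40 lay within 5 Mb of the outermost region, as did 123 of all 448. It was -0.5 or less in 55 windows, of which 5 lay there. The windows named next were picked by this same ratio, so their calls follow in part from the ranking. Of all shared regions 26.8% were higher and 11.4% lower. The highest window was chromosome 4 at 0-1 Mb, where 33 of 39 regions were higher and 0 lower, and the medians were 83.8 normalized reads with Doxo and 18.8 with Acla. Chromosome 13 at 114-115 Mb, chromosome 11 at 0-1 Mb and chromosome 18 at 77-78 Mb followed, with medians of 2.18, 2.15 and 2.14 and with 0 regions lower in each. Chromosome 4 thus held the window of highest ratio although its median as a whole was the lowest. The lowest window was chromosome 3 at 7-8 Mb, with a median of -1.01, 13 of 25 regions lower and 1 higher, and medians of 13.5 with Doxo and 24.9 with Acla. Chromosome 9 at 109-110 Mb had a median of -0.95 with 12 of 23 lower and 0 higher. Chromosome 8 at 3-4 Mb had -0.90 with 13 of 24 lower and 0 higher.

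Neighbouring shared regions had similar ratios. Pearson's r of the log2 ratio between a region and the next was 0.787 over 3096 pairs less than 2 kb apart, 0.654 at 2 to 20 kb, 0.548 at 20 to 100 kb, 0.414 at 100 kb to 1 Mb and 0.0928 over 214 pairs more than 1 Mb apart. These pairs share their libraries and chromosome, and each region enters with both of its neighbours, so r is a description. Where both neighbours were called and lay less than 2 kb apart, 967 of 974 pairs were called in the same direction. That share stayed high with distance, at 90.8% from 100 kb to 1 Mb and 43 of 46 pairs beyond 1 Mb, so it is not particular to close neighbours. With 70.1% of all calls higher, unrelated pairs would also often be called in the same direction, and the share expected of them was not worked out.

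The window of ABCB1, which encodes the P-glycoprotein pump that exports anthracyclines, held regions of both kinds. Of its 10 shared regions 2 were higher with Doxo and 5 lower, and the median log2 ratio was -0.85. The region with the most reads went against that median. At chr7:87256745-87258869 it held 377 and 388 with Doxo, against 93.8 and 91.6 with Acla, a log2 ratio of 2.04 ± 0.16 (SE, n = 2 libraries each; adjusted p = 7.57e-37 by edgeR's quasi-likelihood test). Its libraries did not overlap and it was a peak in both control libraries. TOP2B, the form of topoisomerase II made also outside the cell cycle, had 2 shared regions, of which 1 was higher, with 57.6 and 61.2 with Doxo against 30.8 and 26.0 with Acla. ABCC1, another exporter, had 1, with 41.9 and 32.4 with Doxo against 4.77 and 7.98 with Acla, a log2 ratio of 2.54 ± 0.41. No shared region lay in the windows of TOP2A, ABCG2, NQO1, CBR1 or CBR3. Over the 8 loci of this list 4 of 13 shared regions were higher and 5 lower, against 26.8% and 11.4% of all shared regions.

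Loci of stress response and erythroid identity held few shared regions. The calls below stand against 26.8% higher and 11.4% lower among all shared regions. Of these loci, IER2, GDF15 and KLF1 lie on chromosome 19, where 58.5% of shared regions were higher and 0.440% lower. The window of IER2, an immediate early gene, had 2, both higher with Doxo. That with the most reads had 106 and 122 with Doxo, against 8.35 and 14.3 with Acla, a log2 ratio of 3.33 ± 0.27. ATF3, a stress-induced transcription factor, had 1, with a log2 ratio of 1.27 ± 0.42 that did not pass without Doxo library 1, Acla library 1 or Acla library 2 (adjusted p = 0.0658 to 0.166 by edgeR's quasi-likelihood test). FOS, JUN and EGR1 had 0. Of 6 targets of p53, a factor that K562 cells lack in working form, CDKN1A and BTG2 had 1 higher region each, with log2 ratios of 0.92 ± 0.35 and 0.86 ± 0.32. Neither passed with TMM factors, at adjusted p = 0.0728 for CDKN1A and 0.0998 for BTG2 (edgeR's quasi-likelihood test), nor without Doxo library 1, Acla library 1 or Acla library 2. The region at GDF15 had 5.69 and 15.5 with Doxo, against 7.75 and 11.2 with Acla, and the libraries overlapped. Among 8 erythroid loci, TAL1 and KLF1, both transcription factors of red cell development, had 1 region each. The KLF1 window had 196 and 218 with Doxo, against 10.7 and 22.1 with Acla, a log2 ratio of 3.66 ± 0.22. The TAL1 window had 83.2 and 103.5 with Doxo, against 16.3 and 16.98 with Acla, a log2 ratio of 2.49 ± 0.27. No shared region lay in the windows of GATA1, GFI1B, LMO2, NFE2 or the alpha- and beta-globin genes. The lists hold only regions that gained signal, so a region open in untreated cells that gained none is not in them, and the erythroid identity of the cells could not be checked from them.

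Genes of developmental transcription factors held many higher and no lower regions. Of 30 shared regions at 10 of 12 such loci 21 were higher with Doxo and 0 lower, on both scales, against 26.8% and 11.4% of all shared regions, and their median log2 ratio was 1.82, against 0.12 over all. TLX3, with 5 of these regions and 3 of the higher ones, had been picked for large Doxo gain and is no independent evidence. Without it 18 of 25 were higher and 0 lower. The other loci were also chosen with earlier results of these data known, and regions within a locus are neighbours. These counts are therefore a description and no independent evidence either. The 4 HOX clusters, whose genes set position along the body, held 15 shared regions. In the HOXD cluster the region with the most reads had 507 and 540.0 with Doxo, against 88.3 and 85.7 with Acla, a log2 ratio of 2.59 ± 0.15. In the HOXB cluster it had 146 and 155 with Doxo, against 13.3 and 20.0 with Acla, a log2 ratio of 3.17 ± 0.24. The TLX3 window, whose promoter is printed above, had 517 and 569 with Doxo, against 77.9 and 71.8 with Acla, a log2 ratio of 2.86 ± 0.15. The SOX1 window had 192 and 221 with Doxo, against 17.3 and 17.8 with Acla, a log2 ratio of 3.55 ± 0.22. The Doxo libraries lay above the Acla libraries in all of these. The HOXD and TLX3 regions were over 2500 bp wide, and 66.5% of all shared regions of 2500 bp or more were higher. The HOXB cluster lies on chromosome 17, where 51.5% of shared regions were higher. TBX5 and OTX2 had shared regions with none called. At OTX2 the region had 27.7 and 28.2 with Doxo, against 21.5 and 21.9 with Acla, and the log2 ratio of 0.37 ± 0.35 (adjusted p = 0.444 by edgeR's quasi-likelihood test) does not show equal signal.

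Like that of TLX3, the windows of ZAR1, a factor of the egg, PCDH8 and IRS2 had been picked because Doxo gained much signal there, so their direction is no independent evidence. Of their 5 shared regions 4 were higher and 0 lower, against 26.8% and 11.4% of all shared regions. The region with the most reads in each window was over 2500 bp wide, and 66.5% of all shared regions of 2500 bp or more were higher. At IRS2 the region chr13:110434909-110438139 had 644 and 724 with Doxo, against 45.9 and 37.8 with Acla, a log2 ratio of 4.03 ± 0.16. At PCDH8 the region chr13:53419715-53422820 had 564 and 652 with Doxo, against 35.8 and 36.0 with Acla, a log2 ratio of 4.08 ± 0.16. With diMe-Doxo these had 117 and 83.2 at IRS2, and 90.4 and 62.5 at PCDH8.

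Very long genes at fragile sites held regions of both kinds. Of 30 shared regions in 6 such genes 4 were higher with Doxo and 6 lower, against 26.8% and 11.4% of all shared regions, and their median log2 ratio was -0.34, against 0.12 over all shared regions. LRP1B, a receptor of the low-density lipoprotein receptor family, held 9, of which 0 were higher and 4 lower. Its region with the most reads had 73.9 and 75.3 with Doxo, against 124 and 99.4 with Acla, a log2 ratio of -0.58 ± 0.20 that did not pass without Doxo library 1, Doxo library 2 or Acla library 1 (adjusted p = 0.120 to 0.173 by edgeR's quasi-likelihood test). DMD, the dystrophin gene, held 2, of which 1 was lower, a call not made without Doxo library 2 or Acla library 1. MACROD2 had 1 region strongly higher amid a median of -0.34, with 178 and 209 with Doxo, against 34.0 and 29.9 with Acla. WWOX, an oxidoreductase gene, had 2 of 4 higher and 0 lower.

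At 3 gene clusters 27 of 45 shared regions were higher with Doxo and 1 lower, against 26.8% and 11.4% of all shared regions, and the median log2 ratio was 0.86. The MHC, which holds the genes for antigen presentation among others, held 30 shared regions, of which 17 were higher and 0 lower. Its region with the most reads had 453.5 and 452 with Doxo, against 52.5 and 73.4 with Acla. The protocadherin clusters, which give neurons their surface identity, held 12, of which 7 were higher and 1 lower. The large histone gene cluster held 3, all higher, and 38 regions were listed there for Doxo, against 3 for Acla.

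**Figure D5:**
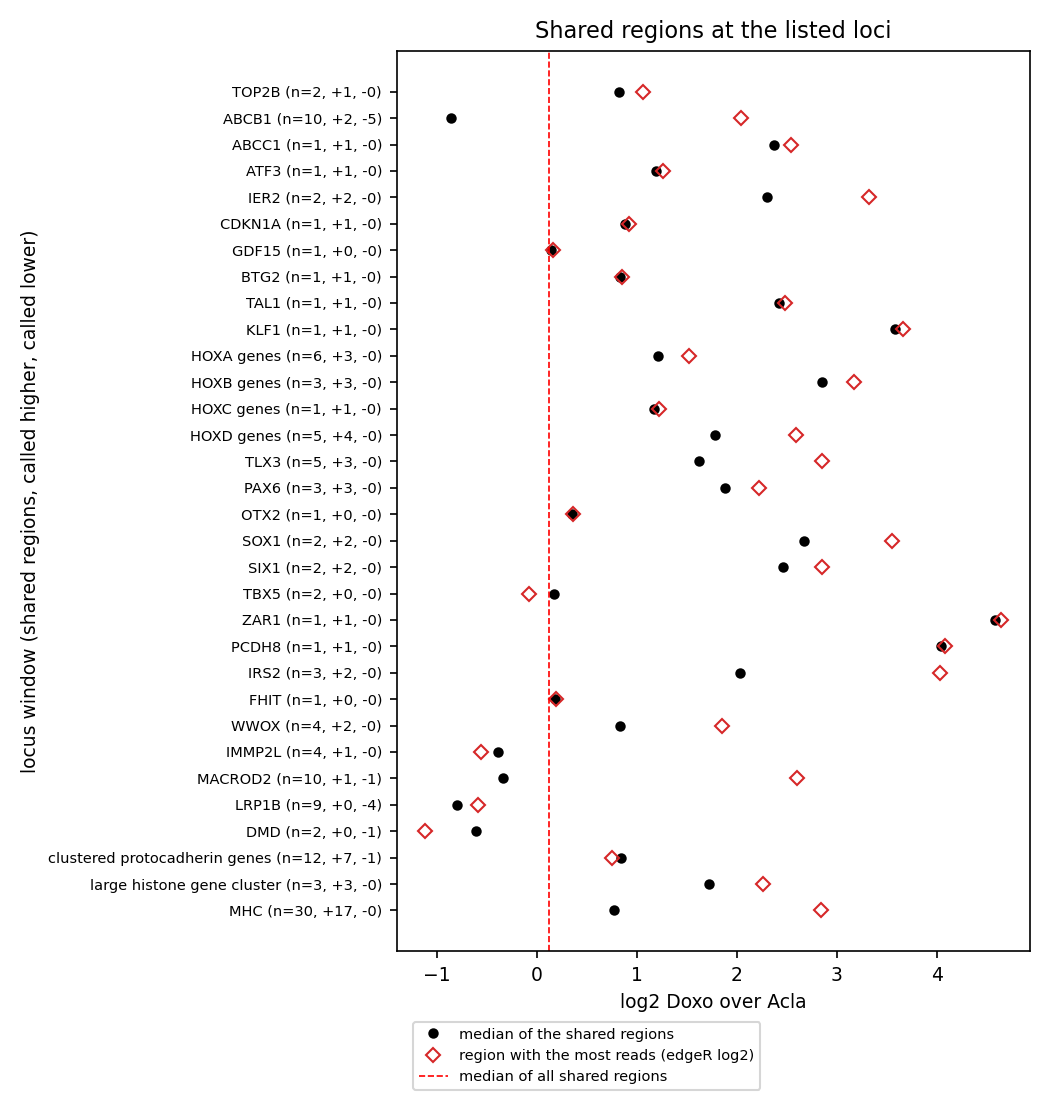
Log2 ratio of Doxo over Acla at the 32 locus windows that held a shared region, with the median over the shared regions (black) and the region with the most reads over the 4 libraries (red diamond); labels give the number of shared regions and of those called higher (+) and lower (-). Black points of the developmental transcription factors lie right of the dashed median of all shared regions, and those of ABCB1, IMMP2L, MACROD2, LRP1B and DMD lie left of 0.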

How the data were processed

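ATAC-seq regions were compared with DiffBind on GRCh37, per the submitters' processing notes. Aligner, peak caller, normalization and tool versions were not given in the sources used here. In the deposited lists, which have no header, log2 values give the mean signal and the fold over control, and each region has the authors' p-value. In the authors' deposited table the lowest log2 fold was 1.5 and the highest p was 0.05 in either list. The deposited signal of a library is a read count times 1 factor, and dividing by that step gave whole reads within 0.1 for 100% of values. No control value was below 1 read, so 1 may stand for 0. The deposited lists also give how many libraries had a peak called. Coordinates were copied from the lists, and whether starts count from 0 or 1 is not stated.

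Acla signal was multiplied by 0.532, the ratio of the mean control signal over shared regions in the Doxo and the Acla list, and diMe-Doxo signal by 0.635. Reads of the Doxo and Acla libraries were tested at all 32787 shared regions with edgeR's quasi-likelihood test (edgeR 4.0.16, R 4.3.3), these factors as offsets and Benjamini-Hochberg adjustment over all of them. The test was first run on simulated data. Log2 ratios of named regions and their SE come from that fit, and those in medians from mean normalized reads with a pseudocount of 1. Reads over shared regions numbered 1844588 and 1999652 with Doxo, 4621381 and 3926456 with Acla, and 85411 and 74175 in the control; full depth is unknown. Libraries of a group differed by more than sampling noise, with a mean chi-square per region of 2.41 for Doxo, 3.44 for Acla and 1.64 for the control, where noise alone gives about 1. Control libraries were kept out of the fit because they served to choose the regions. TMM, DESeq2 1.42.0, each region's own control mean, stricter lists, read filters and leaving out each library were alternatives. Named were the 8 called regions of highest and of lowest ratio with at least 50 reads in both libraries of the higher drug and no overlap, the 4 of lowest adjusted p each way, the 4 widest, the 4 with the most control reads, the 4 highest and 4 lowest windows of 1 Mb, and the region with the most reads at each locus. Windows of 51 loci were set by hand on GRCh37 from general knowledge, single genes with 20 kb on each side. All 42 single genes matched RefSeq (GRCh38.p14) by symbol and chromosome, and 38 by length within 25%, the exceptions being GADD45A, KLF1, TLX3 and ZAR1. A further pair of loci is not reported here. Regions, loci and tests were chosen with earlier results of these data known.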

Additional observations from a re-analysis of the deposited data

How the results depend on the processing

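Only regions that gained with both drugs were compared, 2 libraries stood for each, and drug and dose differed together. The count of higher regions was 8793 as reported. It was 3373 among regions that both lists give with an FDR up to 0.01 and a log2 fold from 2, 1599 at regions with 1 read in each control library, 4543 at regions with a mean of at least 100 reads, and 7361 to 7664 without a library. The count of lower regions was 3747 as reported and 6193 with TMM factors, 2159 with DESeq2 (28337 regions with an adjusted p), 1146 in the stricter lists, 947 at 1 read in each control, and 2085 at 100 reads. Without a library, where the lone library of a drug is assumed to vary like the other drug's, it was 1042 to 3622, with 1042 without Acla library 1 and 1767 without Doxo library 1. The stricter lists and both read settings tested fewer regions; the cause of the other changes was not tested. The median log2 ratio of 0.12 became -0.082 with TMM factors, -0.088 at 1 read in each control, 0.25 in the stricter lists and 0.29 at 100 reads, and lay at 0.03 to 0.24 without a library. The widest class minus that from 1000 to under 1500 bp was 1.06 as reported, 0.86 in the stricter lists, and -0.43 at 1 read in each control, where the widest class holds 11 regions. Without a library it was 0.96 to 1.14. Control reads of 20 to 49 minus 2 gave 0.92, 1.22 at 100 reads and 0.78 to 1.08 without a library. Chromosome 19 minus 4 gave 1.23, 1.95 at 100 reads and 1.002 to 1.49 without a library. Within 1 Mb of the outermost region minus beyond 20 Mb gave 0.97, 1.21 at 1 read in each control, 1.69 at 100 reads and 0.77 to 1.17 without a library. These 4 contrasts kept their direction under every other alternative run. The filter of a mean of at least 20 reads removed no region. The settings of 100 reads and of regions also listed for diMe-Doxo, and the distance contrast, were chosen after seeing the data. Of 57 named regions, locus regions included, 52 were called; 4 calls were not made with TMM factors, and 4 to 6 without a library, all in the same direction as reported. At IMMP2L the region passed with TMM factors (-0.77) and in no other fit run. Of 5 uncalled regions 3 changed sign: GDF15 (-0.084 with TMM factors, -0.74 to 0.70 without a library), FHIT (-0.022 with TMM factors, -0.14 to 0.47 without a library) and TBX5 (-0.23 to 0.065 without a library). No paired analysis was possible because the columns and labels carry no replicate numbers.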
